A study of Mus musculus with 10 samples.

Results

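The 8 genes described here encode complement proteins and complement receptors of mouse macrophages: C1qa, C1qb, C1qc, C2, Cfb, C3, C3ar1 and C5ar1. Their chromatin loops were read from Hi-C, an assay that ligates DNA fragments in contact inside nuclei and counts the joined pairs by sequencing. A loop is a pair of 10 kb bins of the genome that the authors' lists call as enriched in contacts. For each gene, every loop with an anchor bin overlapping the 100 kb on either side of its transcription start site (TSS) was taken. The 8 genes were chosen by name, out of 21755 protein-coding genes on the autosomes and X, and 244 of the 53424 loops of untreated cells lay near them.

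The cells were bone marrow-derived macrophages of female wild type C57BL/6 mice aged 2 to 3 months, differentiated with M-CSF at 20 ng/ml for 6 days. The untreated group is M0[CTR]. In the group M2[IL-4], IL-4 was present at 20 ng/ml during 24 h. The group M2p[pIL-4] had the same exposure, then a wash and a rest of 24 h free of IL-4, and is called rested here. Interferon gamma was given at 20 ng/ml over 3 h to the group IFNG, and after IL-4 and rest to the group pIL-4 + IFNG, called primed plus IFNG here. No group was rested without IL-4 first, so earlier IL-4 and the time of rest cannot be told apart. Each group had 2 samples but 1 loop list, with 53424 to 67728 loops and 2174945 to 2787117 contacts, so a difference between lists has no replicate check, and the threshold behind the 10 kb lists is not given in the sources used here. Where 5 values follow each other without labels, they are in this order of groups: untreated, IL-4, rested, IFNG, primed plus IFNG. A contact here is a sequenced read pair that joins both bins. A pair absent from a list was not called there, which does not mean that it had 0 contacts. Transcript levels were not analysed here, so the labelled cell type was not checked against its markers.

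Complement is a cascade of plasma and locally made proteins that marks microbes and dying cells. C1qa, C1qb and C1qc encode the chains of C1q, the recognition subunit of the classical pathway, which macrophages secrete. C2 is the protease of the classical pathway C3 convertase and Cfb (factor B) that of the alternative pathway. C3, which both convertases cleave, lies where the pathways meet. C3ar1 and C5ar1 are the G protein-coupled receptors of the anaphylatoxins C3a and C5a.

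The 8 genes form 5 loci, so their values are not 8 independent observations. The C1q genes lie side by side and C1qa shared 46 of its 47 distinct bin pairs with C1qb and all 47 with C1qc. C2 and Cfb are neighbours and shared 118 bin pairs, which is 87.4% of those of C2 and 91.5% of those of Cfb. C1q genes had few loops, with 12 to 18 per list, at the 29.97th to 40.9th percentile of the 12249 genes with a mean of 5 or more loops over the lists. The other 5 genes had 47 to 81 loops, at the 83.1th to 94.9th percentile.

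**Figure D1:**
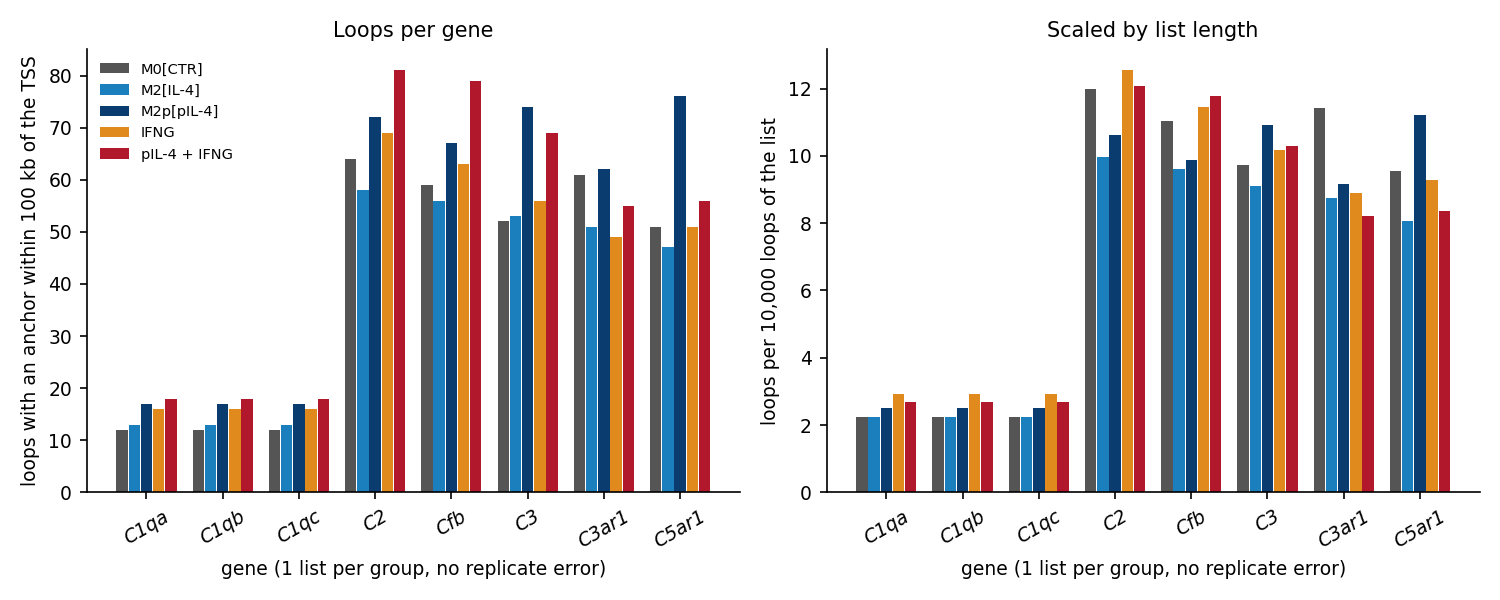
Loops with an anchor within 100 kb of the TSS of each gene (left) and the same per 10000 loops of the list (right), with 1 bar per list and no replicate error. The C1q genes sit between 12 and 18 loops, and C3 and C5ar1 are highest in M2p[pIL-4] with 74 and 76.

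The C1q genes lie on chromosome 4 in GRCm38, all on the minus strand: C1qb (ENSMUSG00000036905.8) from 136880129 to 136886187, C1qc (ENSMUSG00000036896.5) from 136889804 to 136893065 and C1qa (ENSMUSG00000036887.5) from 136895917 to 136898803. Each had 12 loops in untreated cells, 13 under IL-4, 17 after rest, 16 in IFNG cells and 18 in primed plus IFNG cells. None of these loops had both anchors inside the window, so each joined the window to a bin outside it. Such outside bins numbered 6 in each list without interferon gamma and 10 in each list with it. Neighbouring bins were counted separately here, and the numbers were not compared with those of other genes. With touching pairs merged, each C1q gene had 6, 6, 6, 8 and 6 loops, which did not follow this split. The bin from 136890001 to 136900000, which holds the TSS of C1qa and of C1qc, anchored no loop in any list.

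The C1qb TSS bin, from 136880001 to 136890000, anchored 1 loop in each list with interferon gamma and none in the other 3 lists. In IFNG it paired with a bin 480 kb away, with 21 contacts. In pIL-4 + IFNG it paired with the bin from 137070001 to 137080000, 190 kb away and free of protein-coding genes, with 36 contacts (95% interval 25.2 to 49.8). The bin beside the C1qb TSS bin, from 136870001 to 136880000, paired with that same far bin in the other 3 lists. This pair, named after its values were seen, held 32 contacts in untreated cells, 32 under IL-4 and 31 after rest. The pair of that far bin with the bin from 136900001 to 136910000, just beyond C1qa, was called in 4 lists. It held 49 contacts in untreated cells, 55 after rest, 47 in IFNG cells and 44 in primed plus IFNG cells, and was not called under IL-4. Their intervals overlapped. The largest pair of C1qa and C1qc called in some lists joined adjacent bins in Zbtb40, with 101 contacts in M2p[pIL-4]. Loops spanning or touching the C1qb TSS bin numbered 3 in untreated cells, 3 under IL-4, 5 after rest, 1 in IFNG cells and 3 in primed plus IFNG cells.

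The 250 bases before the RefSeq start of C1qb, chr4:136886201-136886450 on the minus strand of GRCm38.p6, are shown because this start lies in the bin whose loops were called with interferon gamma only. That bin had a different partner in each of these lists. The bin beside it was paired with the partner from pIL-4 + IFNG in the lists without interferon gamma. Capitals mark letters of an NF-kB core, GGGA and CC with any 4 bases between, which matched both strands in overlap at positions -191 to -181 from the start.
C1qb promoter: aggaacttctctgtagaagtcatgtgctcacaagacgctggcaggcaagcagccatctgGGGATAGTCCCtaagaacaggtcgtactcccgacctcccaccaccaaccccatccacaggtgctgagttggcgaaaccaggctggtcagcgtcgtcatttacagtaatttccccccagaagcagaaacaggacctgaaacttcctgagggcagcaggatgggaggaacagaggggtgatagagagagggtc

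**Figure D2:**
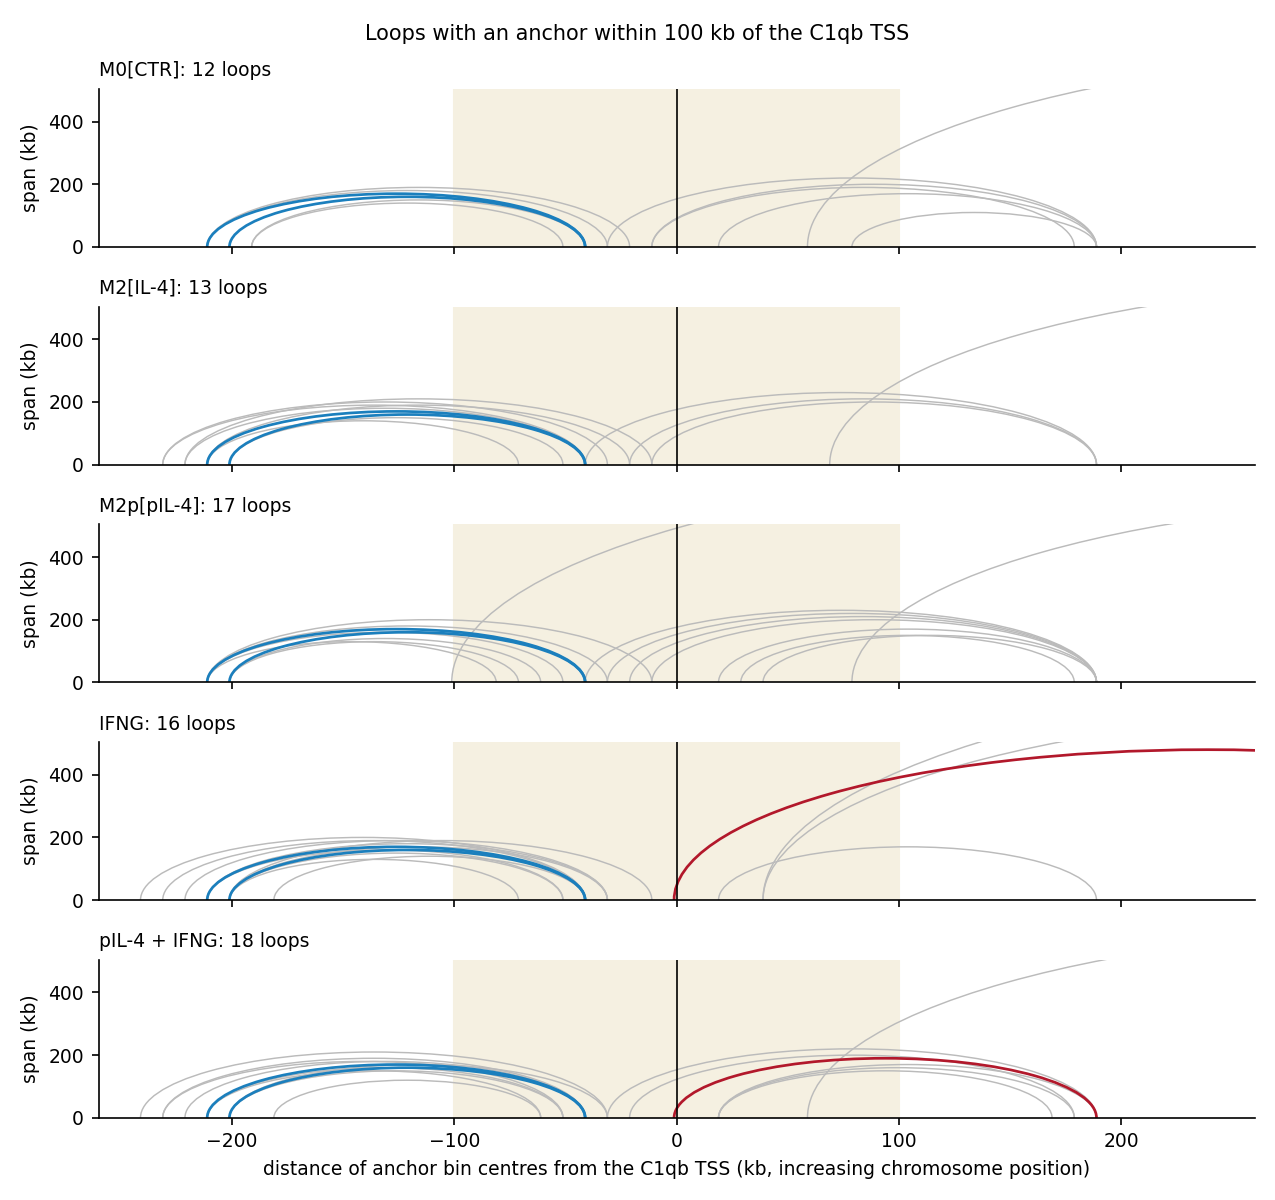
Each arc is a loop near C1qb in 1 list, drawn between its anchor bin centres as distance from the TSS in kb, with its height as its span in kb. Blue arcs were called in all 5 lists, red arcs touch the TSS bin, and the shaded band is the 100 kb on either side. Red arcs appear in IFNG and pIL-4 + IFNG alone, and loops spanning over 500 kb leave the panels. In lists without interferon gamma, a grey arc joins the neighbouring bin to the far end of the red pIL-4 + IFNG arc.

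C2 (ENSMUSG00000024371.14, 34862604 to 34898265) and Cfb (ENSMUSG00000090231.10, 34856374 to 34862518) lie on the minus strand of chromosome 17, in the dense gene cluster of the major histocompatibility complex. C2 had 64 loops in untreated cells, 58 under IL-4, 72 after rest, 69 in IFNG cells and 81 in primed plus IFNG cells. Cfb had 59, 56, 67, 63 and 79. In these numbers both genes were highest in pIL-4 + IFNG and lowest in M2[IL-4]. Per 10000 loops of the list, C2 was highest in IFNG, at 12.5 against 12.1 in pIL-4 + IFNG. With touching pairs merged, both were highest after rest, at 11, 10, 17, 12 and 11 loops for C2 and 10, 9, 15, 12 and 12 for Cfb. A TSS lay in both anchors of 22.1% of the loops of this locus in untreated cells and 26.2% under IL-4. The share was 30.1% after rest, 31.0% in IFNG cells and 29.8% in primed plus IFNG cells. Over the whole lists it was 4.26% to 4.60%, but these are not matched for gene density. Many bins of this gene-dense locus hold a TSS, and whether such bins were joined more often than others was not tested.

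The strongest loop of the Cfb TSS bin, relative to the median at its span, joined it to the next bin. That bin holds the start sites of Nelfe and Skiv2l and also part of Cfb itself, so the pair lies partly within Cfb. This loop held 173 contacts in untreated cells, 177 under IL-4, 153 after rest, 168 in IFNG cells and 184 in primed plus IFNG cells. The lowest interval, 130 to 179, overlapped the highest, 158 to 213. For C2, the loop from the TSS bin to a bin in Skiv2l, 50 kb away, held 57 contacts in untreated cells, 52 under IL-4 and 56 after rest, and was not called in either list with interferon gamma. From the same C2 bin, a second loop to the Nelfe and Skiv2l bin, 40 kb away, was called in all 5 lists with 48, 51, 60, 61 and 57 contacts. It was named after its values were seen, and the C2 TSS bin thus kept a called partner in every list. That bin also holds the start site of Ehmt2, so its loops cannot be assigned to the C2 promoter alone. The largest pair of this locus that was called in some lists joined adjacent bins of Stk19 and Skiv2l, with 199 contacts in M0[CTR] only. The anchor used most was the Cyp21a1 bin from 34800001 to 34810000, also named afterwards, with 6, 5, 8, 9 and 14 loops in the same order.

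C3 (ENSMUSG00000024164.15) lies on the minus strand of chromosome 17 from 57203970 to 57228136. It had 52 loops in untreated cells, 53 under IL-4, 74 after rest, 56 in IFNG cells and 69 in primed plus IFNG cells, so both groups that had met IL-4 and rested had more than the other 3. Relative to list length, at 10.9 and 10.3 loops per 10000 against 9.10 to 10.2, they were still the highest. Within 25 kb of the TSS the numbers were 16, 14, 29, 18 and 20, and within 50 kb they were 30, 24, 47, 32 and 39. After scaling by list length, pIL-4 + IFNG was not above IFNG in these windows, at log2 ratios of -0.14 and -0.0069. Once bin pairs that touch were merged into 1 loop, the order was gone, with 15, 20, 17, 18 and 19 loops.

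The C3 TSS bin, from 57220001 to 57230000, anchored 3 loops in untreated cells, 3 under IL-4, 6 after rest, 3 in IFNG cells and 5 in primed plus IFNG cells. Its strongest loop, relative to the span median, was called in all lists and ran 110 kb to the bin from 57330001 to 57340000, next to the end of Vav1, which encodes a guanine nucleotide exchange factor of immune receptor signalling. It held 50 contacts in untreated cells, 52 under IL-4, 48 after rest, 58 in IFNG cells and 49 in primed plus IFNG cells, with intervals that overlapped. Counting all loops from the TSS bin to the Vav1 bins and beyond, a set chosen after its values were seen, M0[CTR] had 1, M2[IL-4] 2, M2p[pIL-4] 5, IFNG 2 and pIL-4 + IFNG 4. The contact beside Vav1 was thus in every list with similar counts, and the number of called bins around it differed. The largest pair called in some lists joined adjacent bins inside C3, with 174 contacts in pIL-4 + IFNG only.

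The promoter of C3, chr17:57228137-57228386 on the minus strand of GRCm38.p6, is shown because its bin held this constant loop. Capitals mark TTGCNNAA, a C/EBP core, and the NF-kB core given above, on either strand.
C3 promoter: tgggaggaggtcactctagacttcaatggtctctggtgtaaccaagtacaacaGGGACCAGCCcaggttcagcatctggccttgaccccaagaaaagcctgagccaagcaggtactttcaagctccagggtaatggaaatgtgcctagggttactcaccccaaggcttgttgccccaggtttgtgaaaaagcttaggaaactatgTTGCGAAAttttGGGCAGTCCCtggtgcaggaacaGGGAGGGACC
The C/EBP letters lie at positions -45 to -38 from the start, and NF-kB letters at -197 to -188, -33 to -24 and -10 to -1. Of 32851 RefSeq promoters of 300 bases, 10.8% held the C/EBP letters and 20.7% the NF-kB letters. RefSeq entries were matched for 5 of the 8 genes (C1qb, C1qc, C3, C3ar1 and C5ar1). The STAT6 core, TTC and GAA with any 4 bases between, was in none of these 5 windows, against 6.95% of all promoters. TTCNNNGAA, the core of the gamma-activated site (GAS), was also in none of them, against 8.30% of all promoters. NF-kB letters were also in C1qb and C1qc. Such a match describes letters and not a bound site.

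**Figure D3:**
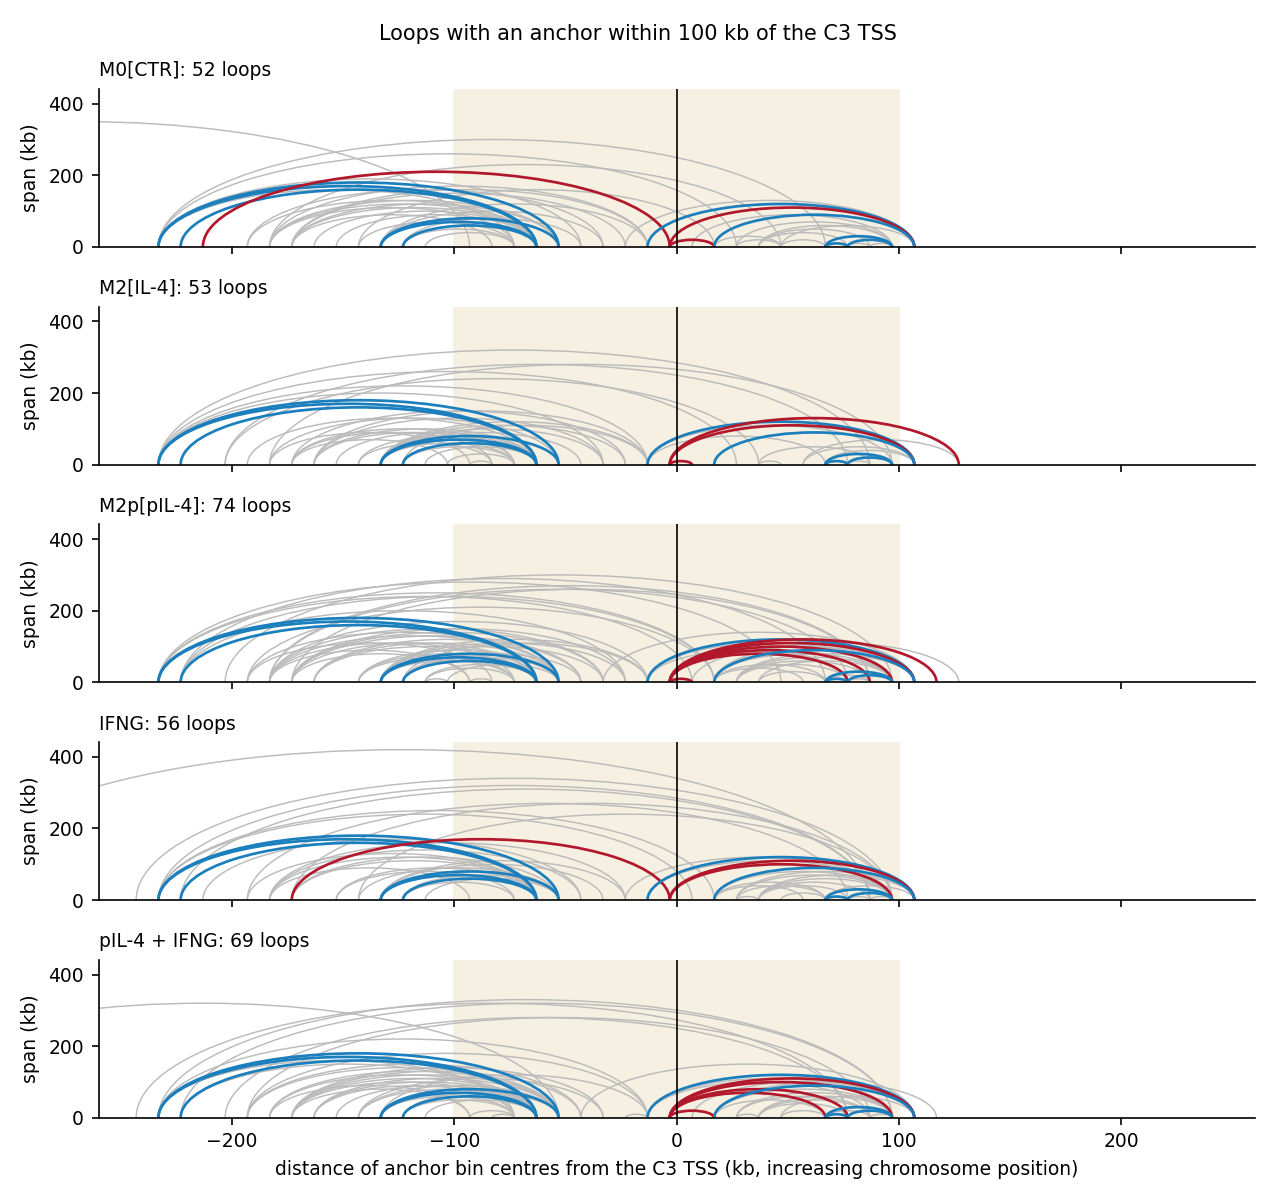
Each arc is a loop near C3 in 1 list, drawn between its anchor bin centres as distance from the TSS in kb, with its height as its span in kb. Blue arcs were called in all 5 lists, red arcs touch the TSS bin, and the shaded band is the 100 kb on either side. The red arc that spans 110 kb recurs in every list, and M2p[pIL-4] has 5 red arcs towards Vav1 against 1 in M0[CTR].

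C3ar1 (ENSMUSG00000040552.8) lies on the minus strand of chromosome 6 from 122847138 to 122856161. It had 61 loops in untreated cells, 51 under IL-4, 62 after rest, 49 in IFNG cells and 55 in primed plus IFNG cells. Relative to list length M0[CTR] was highest, with 11.4 loops per 10000, and the other lists had 8.21 to 9.15. Closer to the promoter the gap was wider: within 25 kb there were 18 loops in untreated cells, 12 under IL-4, 15 after rest, 10 in IFNG cells and 8 in primed plus IFNG cells. The TSS bin anchored 4, 2, 3, 1 and 2 loops. After merging touching pairs, M0[CTR] was instead lowest, with 14 loops against 16 to 27.

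The strongest C3ar1 TSS loop, relative to the span median, ran 410 kb to the TSS bin of Clec4d, which encodes a C-type lectin receptor of myeloid cells. It held 22 contacts in untreated cells (13.8 to 33.3), 33 under IL-4 (22.7 to 46.3), 30 after rest and 19 in primed plus IFNG cells (11.4 to 29.7), and was not called in IFNG cells. These intervals overlapped. The TSS bin also met the Necap1 TSS bin, 20 kb away and named after its values were seen, with 126 contacts in untreated cells, 121 after rest, 120 in IFNG cells and 122 in primed plus IFNG cells, a loop not called under IL-4. The bin from 122890001 to 122900000, which holds no protein-coding gene and was named after its values were seen, was the busiest anchor of the locus, with 15, 13, 16, 17 and 14 loops. It joined bins in Clec4a4 and Clec4b2 in all lists. The largest pair called in some lists joined adjacent bins in Slc2a3, with 183 to 192 contacts in 4 lists, and was not called in IFNG.

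C5ar1 (ENSMUSG00000049130.6) lies on the minus strand of chromosome 7 from 16246743 to 16259540. It had 51 loops in untreated cells, 47 under IL-4, 76 after rest, 51 in IFNG cells and 56 in primed plus IFNG cells. M2p[pIL-4] stood above the other 4 lists, also per 10000 loops, at 11.2 against 8.07 to 9.55. With touching pairs merged the gap shrank, with 14, 15, 18, 14 and 17 loops. Loops that left the window numbered 21, 23, 40, 24 and 26, and those with both anchors inside it 30, 24, 36, 27 and 30. The neighbour C5ar2, a second C5a receptor, shared most of this window and had 58, 53, 80, 56 and 60 loops.

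Loops from the C5ar1 TSS bin itself numbered 5, 3, 5, 6 and 5, so the rise in M2p[pIL-4] was in other bins of the window. Bins named after their values were seen were the Meis3 TSS bin from 16170001 to 16180000, with 4, 6, 12, 5 and 5 loops, and the Inafm1 TSS bin from 16270001 to 16280000, with 6, 3, 12, 5 and 5. The strongest C5ar1 TSS loop, relative to the span median, ran 50 kb to a bin in Dhx34 and was called in all lists. It held 73 contacts in untreated cells (57.2 to 91.8), 90 under IL-4 (72.4 to 111), 101 after rest (82.3 to 123), 73 in IFNG cells and 80 in primed plus IFNG cells. The intervals of the highest and the lowest overlapped. The largest pair called in some lists joined adjacent bins in Dhx34, with 155 contacts in M2[IL-4] and 187 in M2p[pIL-4].

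The promoter of C5ar1, chr7:16259339-16259588 on the minus strand of GRCm38.p6, is shown because its bin had called loops in every list. It held none of the promoter motifs named here, so no letters are in capitals.
C5ar1 promoter: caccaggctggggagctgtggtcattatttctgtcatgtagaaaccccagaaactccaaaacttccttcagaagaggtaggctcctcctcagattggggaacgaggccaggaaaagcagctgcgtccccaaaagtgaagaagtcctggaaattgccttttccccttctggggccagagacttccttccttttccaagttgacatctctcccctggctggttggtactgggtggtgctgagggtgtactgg

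CTCF, the factor that holds many loop anchors, was searched by its core, CCA and AGGGGGC with any 2 bases between, on both strands. The letters were in 2.61% of 255658 bins of 10 kb and in 4.81% of the bins that anchored a loop in any list. They were in no anchor bin of the loops named above by rule. Among anchors of bin pairs called in all 5 lists, they were in 2 of 21 bins for C2 and for Cfb, 1 of 13 for C3, 1 of 14 for C3ar1, 3 of 18 for C5ar1 and 0 of 3 for the C1q genes. The matches are given with 14 bases on either side and the core in capitals, since these anchors were the constant part of each locus. They lie on chromosomes 17 (core starts 34654078, 34923126 and 57096750), 6 (122661168 and 122669544) and 7 (16199660, 16232642 and 16310127).
C2 and Cfb, Atf6b bin, plus strand: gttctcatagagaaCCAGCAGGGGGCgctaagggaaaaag
C2 and Cfb, Slc44a4 bin, plus strand: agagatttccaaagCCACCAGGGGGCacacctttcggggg
C3, gene-free bin, plus strand: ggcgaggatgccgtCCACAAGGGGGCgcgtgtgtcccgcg
C3ar1, gene-free bin, minus strand: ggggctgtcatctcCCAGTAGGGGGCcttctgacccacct
C3ar1, gene-free bin, plus strand: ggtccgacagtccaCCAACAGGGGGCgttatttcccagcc
C5ar1, Dhx34 bin, minus strand: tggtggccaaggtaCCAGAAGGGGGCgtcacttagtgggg
C5ar1, C5ar2 bin, minus strand: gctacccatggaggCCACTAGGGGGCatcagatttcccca
C5ar1, Bbc3 bin, minus strand: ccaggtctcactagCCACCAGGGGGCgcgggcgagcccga

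Loop numbers were compared between lists as the log2 ratio of loops plus 1, scaled by list length, and a gene past 1.5-fold (0.585 on the log2 scale) was counted. The comparisons share lists, M0[CTR] in particular, and are not independent of each other. The share of all tested genes given beside each count is not matched for loop number. It includes genes with a mean of only 5 loops, whose ratios spread more by counting error alone. C2, Cfb, C3, C3ar1 and C5ar1 had 47 to 81 loops. A count of 0 of 8 therefore does not show that these genes were more stable than others. The first comparison asked what IL-4 changed. In M2[IL-4] against M0[CTR], 0 of 8 genes were past 1.5-fold, where 16.7% of the 12249 tested genes were. All 8 lay below 0 after scaling by list length, with a median of -0.15 against -0.02 over all tested genes, but C3 and the C1q genes lay above 0 without scaling, the C1q genes above 0 with lists cut to equal length, and the C1q genes at 0 after scaling by the median gene. Leaving out the scaling raised every ratio, and the median of all tested genes with it, by 0.125 here, by 0.34 and 0.22 in the next 2 comparisons and by 0.28 in the last. C3ar1 was lowest at -0.38, followed by C2 at -0.26 and C5ar1 at -0.24, but merging touching pairs put C3ar1 at 0.29, and C2 lay at 0.11 within 25 kb and 0.15 within 50 kb. Within 25 kb of the TSS, where the C1q genes had too few loops to be tested, 1 of 5 members passed, C3ar1 at -0.67, against 20.2% of 7438 tested genes. That share is near the background.

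The next question was what remained after IL-4 was washed out. In M2p[pIL-4] against M0[CTR], 0 of 8 genes were past 1.5-fold, against 12.4% of tested genes. C5ar1 (0.22), C3 (0.16) and the C1q genes (0.13) lay above 0, and C3ar1 (-0.32), C2 (-0.17) and Cfb (-0.16) below. Without scaling all 8 lay above 0. Within 25 kb, 1 of 5 members passed, again C3ar1, at -0.59, against 16.5% of genes. Merging touching pairs turned C3ar1 the other way, to 0.64, which is past 1.5-fold higher, and put C2 at 0.33, Cfb at 0.28, C3 at -0.09 and the C1q genes at -0.26. Within 50 kb the C1q genes lay at -0.22 to -0.10 and C2 at 0.24. Directions in this comparison therefore depended on how loops were counted. C5ar1 stayed above 0 under these alternatives, but only at 0.03 within 25 kb and 0.02 within 50 kb, which is close to no difference.

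Between continuing IL-4 and washout, in M2p[pIL-4] against M2[IL-4], 0 of 8 genes were past 1.5-fold, against 13.9% of tested genes. All 8 lay above 0 under each scaling tried, from 0.04 for Cfb to 0.46 for C5ar1, with a median of 0.15 against -0.02 over all tested genes. Leaving out adjacent-bin loops left 7 above 0, a 50 kb window 5, and merging touching pairs 4. C5ar1, at the 88.7th percentile, had 1.38 times as many loops after scaling. Its log2 ratio was 0.68 without scaling, which is past 1.5-fold, and 0.11 with touching pairs merged, where C3 lay at -0.36. Within 25 kb, 2 of 5 members passed, C3 at 0.78 and C5ar1 at 0.59, against 17.7% of genes. Within 50 kb, 1 of 8 passed, C3 at 0.72, against 16% of 9747 genes. C1qa reached 0.78 within 25 kb on 5 loops against 2.

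Interferon gamma was compared without and with priming. In IFNG against M0[CTR], 0 of 8 genes were past 1.5-fold, against 18.7% of tested genes. The C1q genes were highest at 0.34 and C3ar1 lowest at -0.35, and C2, Cfb and C3 lay between 0.05 and 0.06. C5ar1 was at -0.04, and at 0 without scaling, with 51 loops in both lists. In primed plus IFNG cells against rested ones, 0 of 8 were past 1.5-fold, against 14.3%. C5ar1 was lowest at -0.42, at the 11.2th percentile, and Cfb highest at 0.25. With touching pairs merged these became -0.07 for C5ar1 and -0.29 for Cfb, and C2 went from 0.18 to -0.58. In IFNG against M0[CTR], merging put C3ar1 at 0.14 and left the C1q genes at 0.32. A 50 kb window put the C1q genes at 0.31 to 0.50. A 25 kb window put C1qb and C1qc at -0.36, on 3 loops against 4, and C1qa at 0.54, on 5 against 3. Within 25 kb, 1 of 5 members passed in each, C3ar1 at -0.83 and -0.81, against 20.7% and 15.6% of genes. With the 100 kb window, C3ar1 was at -0.35 and -0.15.

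The last comparison, pIL-4 + IFNG against IFNG, set cells given interferon gamma after IL-4 and rest against those without. In it, 0 of 8 genes were past 1.5-fold, against 12.3% of tested genes. Values ran from -0.15 for C5ar1 to 0.04 for Cfb after scaling, while all 8 lay above 0 without it. With touching pairs merged they ran from -0.57 for the C1q genes to 0.17 for C3ar1. Within 25 kb, 0 of 5 members passed, against 16.1% of genes.

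**Figure D4:**
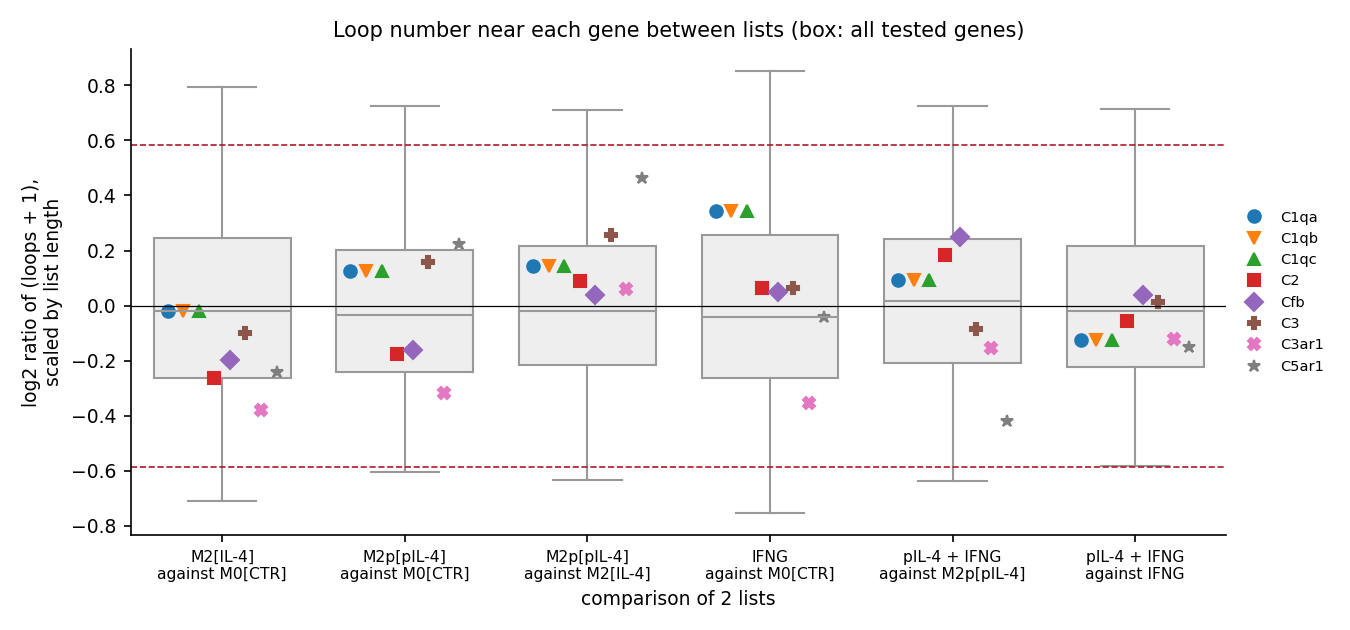
Log2 ratio of loop number (loops plus 1, scaled by list length) for each gene in the 6 comparisons of lists, 1 symbol per gene. Grey boxes show the quartiles and whiskers the 5th to 95th percentile of 12249 tested genes, and dashed lines 1.5-fold. No gene crosses a dashed line, and C5ar1 comes closest at 0.46 in M2p[pIL-4] against M2[IL-4].

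Contacts were then compared where all 5 lists had called the same bins. Pairs that were not called in some list have no count there and were left out, so these pairs were selected for being called everywhere, and the comparison says nothing of loops lost or gained. These were 14063 bin pairs, with 2 near the C1q genes, 23 near C2, 22 near Cfb, 12 near C3, 14 near C3ar1 and 15 near C5ar1. Near C2 they held 2048 contacts in untreated cells, 2088 under IL-4, 2044 after rest, 2153 in IFNG cells and 2123 in primed plus IFNG cells. Near Cfb, which shares most of these pairs, they held 1902, 1922, 1880, 1996 and 1952. Near C3 they held 834, 790, 812, 792 and 831, near C3ar1 721, 674, 749, 689 and 684, and near C5ar1 1144, 1121, 1148, 1116 and 1154. For these genes and Cfb every log2 ratio in the 6 comparisons lay between -0.12 and 0.10, and every 95% interval held 0. The intervals reached no further than -0.26, for C3 and C3ar1, and 0.25, for C3ar1.

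The C1q genes had the largest ratios and the fewest contacts. Their 2 pairs joined bins inside Ephb2, from 136670001 to 136690000, to the bin from 136840001 to 136850000, and are shared by all 3 genes. The longer held 66 contacts in untreated cells, 48 under IL-4, 50 after rest, 48 in IFNG cells and 55 in primed plus IFNG cells. The shorter held 74, 52, 50, 60 and 49. M0[CTR] was highest at both. Together, scaled by the contacts of all such pairs, their log2 ratio to M0[CTR] was -0.48 under IL-4 (-0.87 to -0.10), -0.54 after rest (-0.92 to -0.16) and -0.42 in IFNG cells (-0.79 to -0.04). With the two-sided exact binomial test, unadjusted p was 0.0117, 0.00446 and 0.0261, and p adjusted by Benjamini-Hochberg over 11295 genes was 0.526, 0.856 and 0.762. None passed, and all 3 comparisons use the same M0[CTR] list. Over all pairs called in both lists compared, the ratios were nearer 0, at -0.32 under IL-4 (4 pairs), -0.23 after rest (6 pairs) and -0.22 in IFNG cells (4 pairs), with adjusted p of the exact binomial test of 0.904, 1 and 1.

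No member passed this test in any comparison. Over all genes, 0 passed in each of the 3 comparisons of lists without interferon gamma and in pIL-4 + IFNG against IFNG, with 402 to 673 at an unadjusted p under 0.05. In IFNG against M0[CTR], 6 genes were higher (0.0531%) and 11 lower (0.0974%), and in primed plus IFNG cells against rested ones, 6 were higher and 6 lower. The difference between the interferon gamma effect with and without priming was tested on the log scale of these contacts, and none of 11295 genes passed. For the C1q genes it was 0.49 (-0.05 to 1.03), and for the other members -0.01 to 0.17, with an adjusted p of 0.999 for each (Wald test on summed contacts, Benjamini-Hochberg over the 11295 genes).

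**Figure D5:**
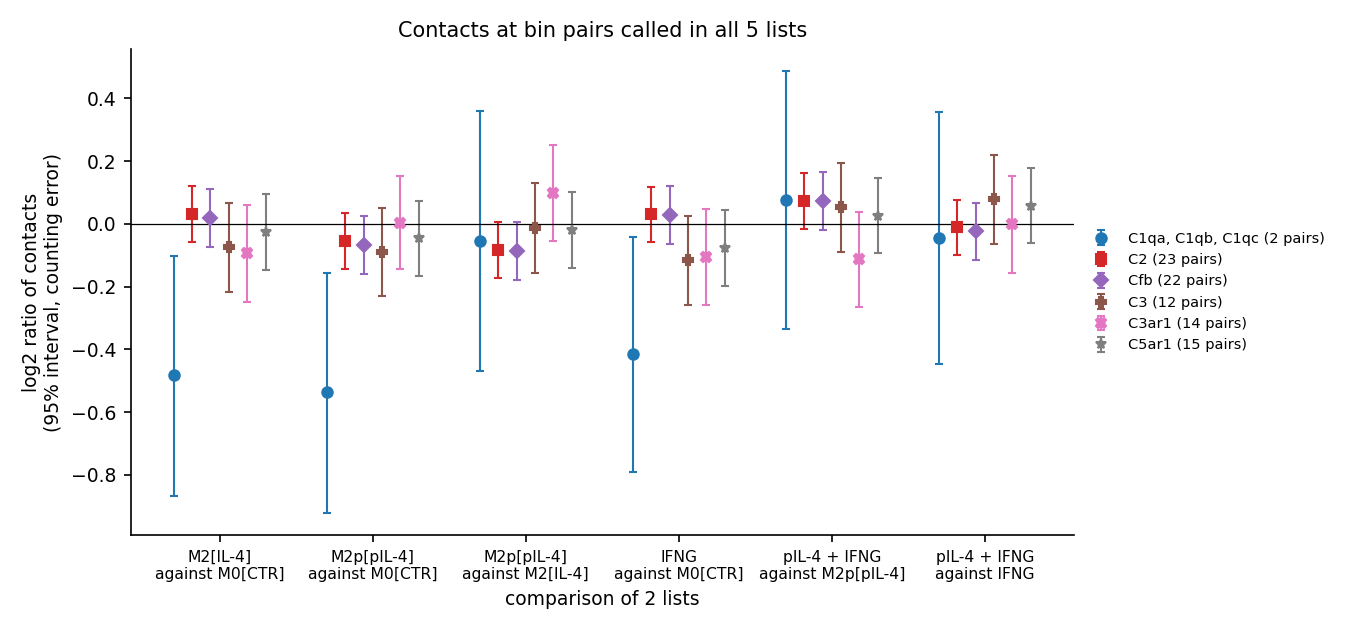
Log2 ratio of summed contacts at bin pairs called in all 5 lists, with 95% exact binomial intervals for counting error, in 6 comparisons of lists. The C1q genes, with 2 pairs, lie at -0.48, -0.54 and -0.42 against M0[CTR] with wide intervals, and each other interval holds 0.

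The share of constant loops was highest at C2 and Cfb and lowest at the C1q genes. The same bins were called in all 5 lists for 17.0% of the 135 bin pairs of C2 (95% interval 11.6 to 24.3) and 17.1% of the 129 of Cfb (11.5 to 24.5). The share was 12.8% for C5ar1 (7.93 to 20.1), 10.7% for C3ar1 (6.47 to 17.1), 7.89% for C3 (4.57 to 13.3) and 4.26% for the C1q genes (1.17 to 14.2). Over all 153264 bin pairs it was 9.18%, inside the intervals of C5ar1, C3ar1, C3 and the C1q genes and under those of C2 and Cfb, although touching bin pairs are not independent and make such intervals too narrow. When a match within 25 kb was enough, it was 53.2% for the C1q genes and 82.1% to 87.6% for the others, against 64.5% of all bin pairs. At pairs called in all lists, the highest count was a median of 1.27 to 1.31 times the lowest for the 5 genes other than C1q. The widest was a pair 280 kb apart near C3ar1, with 41 contacts in M0[CTR] (29.4 to 55.6) and 24 in pIL-4 + IFNG (15.4 to 35.7).

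Of 41 other complement components, regulators and receptors, 1 was not matched to the annotation and 20 had enough loops. In M2[IL-4] against M0[CTR], 3 were past 1.5-fold higher and 1 lower, where 8.92% and 7.82% of all tested genes were. In M2p[pIL-4] against M0[CTR], 1 was higher and 0 lower (7.24% and 5.14% of all), and against M2[IL-4], 2 were higher and 3 lower (7.94% and 5.94%). In IFNG against M0[CTR], 1 was higher and 1 lower (10.2% and 8.49%). For primed plus IFNG cells, 2 were higher and 3 lower than in rested cells (8.18% and 6.09%), and 1 was higher and 1 lower than in IFNG cells (7.36% and 4.91%). Medians over the 20 ran from -0.11 to 0.10. The 20 genes are not independent of the members or of each other. C5ar2 shared most of the C5ar1 window, and the C4b TSS bin anchored loops of the C2 and Cfb locus. Itgam and Itgax had nearly the same loop numbers, at 41, 62, 60, 42 and 48 against 41, 61, 58, 41 and 45. The largest ratios were at genes with few loops. C7, a subunit of the membrane attack complex, had 4, 11, 4, 5 and 7 loops in the order untreated, IL-4, rested, IFNG and primed plus IFNG, a log2 ratio of -1.48 in M2p[pIL-4] against M2[IL-4]. Cfi, the protease that inactivates C3b, had 7, 9, 21, 14 and 8 loops, with -1.27 in primed plus IFNG cells against rested ones. C1rl, a C1r-like protease, had 3, 6, 4, 5 and 10 loops, with 1.15 in that comparison.

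The genes beyond 500 kb whose profile over the 5 lists was nearest, by Euclidean distance of centred log2 values, were Gm9964 for C1qa (0.04), Nxpe3 for C2 (0.04), Blm for C3 (0.04), Jph2 for C3ar1 (0.05) and Nlrx1 for C5ar1 (0.07). Such profiles were common: 235 to 936 of the 12183 to 12235 genes compared lay within 0.25 of each. The median distance over all genes was 0.53 to 0.61.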

How the data were processed

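Hi-C loops were analysed in 10 samples of 5 groups, assigned from the sample titles. Reads were processed by the authors in nf-core/hic (HiC-Pro, bowtie2) and loops called by HICCUPS at 25 kb under a false discovery rate limit, per their methods, a limit that may not apply to the 10 kb lists. The submitters' processing notes add mm10, FastQC and HOMER. As deposited, each of 5 lists, 1 per group, gave pairs of 10 kb bins with a whole-number count of contacts and no normalization, so both replicates appeared merged. The caller behind these lists is not given in the sources used here.

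Genes and start sites came from GENCODE M21 on GRCm38. Tested genes had a mean of 5 or more loops over the lists, or 50 or more contacts at bin pairs called in all 5 lists, where summed counts were compared by two-sided exact binomial tests with Benjamini-Hochberg adjustment. These tests compare 2 lists, in each of which the replicates appeared merged, and not the conditions. Intervals were 95% and cover counting error only: exact Poisson for contacts and Wilson for shares. On simulated data of 11295 genes, the test called 160 of 200 genes changed 1.5-fold and 75 of 9148 unchanged ones, among 1580 calls that included neighbours of changed genes. The simulated counts had Poisson error alone, without variation between libraries. So many calls made the adjustment more lenient than in the real comparisons, where 0 to 17 genes passed. This sensitivity therefore does not carry over to the real comparisons, nor to the C1q genes with 2 pairs.

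Named loops were, per gene, the TSS-bin loop with the most contacts over the median at its span, and the pair with the most contacts among those called in some lists. Named other genes were the nearest profile per locus and the 3 other complement genes with the largest ratio. The members and lists were chosen with earlier results of these data known. Alternatives were windows of 25 and 50 kb, merged touching pairs, equal list lengths, other scalings, a pseudocount of 0.5, no adjacent-bin loops and pairs called in both lists compared. Scripts ran in Python 3.11.15 with scipy 1.17.1, pandas 2.3.3, numpy 2.4.6 and, for plots, matplotlib 3.10.9.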

Additional observations from a re-analysis of the deposited data

How the results depend on the processing

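No paired analysis was possible because the lists carry no replicate numbers, and no replicate could be left out. The number of genes past 1.5-fold was 0 in every comparison and was unchanged by equal list lengths, median scaling, a pseudocount of 0.5 or leaving out adjacent-bin loops. A 25 kb window gave 1 (C3ar1) against M0[CTR] in each of M2p[pIL-4], IFNG and M2[IL-4], and in pIL-4 + IFNG compared with M2p[pIL-4], and 3 (C3, C5ar1 and C1qa, which had too few loops there to be tested) in M2p[pIL-4] against M2[IL-4]. In that last comparison a 50 kb window gave 1 (C3) and no scaling 1 (C5ar1). Merging touching pairs gave 1 (C3ar1, higher) in M2p[pIL-4] against M0[CTR]. Of 384 log2 ratios of loop number under alternatives, 65 changed sign, 21 of these with merged pairs, 14 at 25 kb and 13 without scaling. Of the same 384, 378 moved by less than their counting interval. That interval is wide where loops are few, and the alternatives count the same loops again, so it is no measure of robustness. Matching within 25 kb raised the share called in all lists to 53.2% for C1qa, C1qb and C1qc, 87.4% for C2, 87.6% for Cfb, 83.6% for C3, 83.2% for C3ar1 and 82.1% for C5ar1.

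Contact ratios passed no adjustment under any alternative (lowest adjusted p 0.574), and 22 of 126 changed sign, on the log2 scale. With a 25 kb window, which left the C1q genes without a pair, these were C2 (-0.0028) in pIL-4 + IFNG compared with M2p[pIL-4], Cfb (0.0243) in pIL-4 + IFNG against IFNG, C3 in the same comparisons (-0.0137 and -0.1088), C3ar1 in M2p[pIL-4] against M0[CTR] (-0.2731), against M2[IL-4] (-0.169) and in pIL-4 + IFNG compared with M2p[pIL-4] (0.0187), and C5ar1 under IL-4 (0.0327) and after rest (0.0553) against M0[CTR], after rest against M2[IL-4] (0.0226) and pIL-4 + IFNG compared with M2p[pIL-4] (-0.0419). C3ar1 had 1 pair there. With pairs called in both lists compared they were C1qa, C1qb and C1qc (0.0067) in pIL-4 + IFNG against IFNG, C3 (0.0073) and C5ar1 (0.003) in M2p[pIL-4] against M2[IL-4], and C5ar1 (0.0232) in M2[IL-4] against M0[CTR]. Without adjacent-bin loops they were C2 and Cfb in M2[IL-4] against M0[CTR] (-0.0146), and in M2p[pIL-4] against M2[IL-4] C2 and Cfb (0.0044) and C3 (0.0043). The cause of these changes was not tested. The C1q pairs held 100 to 140 contacts in a list, and a difference inside the intervals given was not detectable at this depth.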
